A study of Rattus norvegicus with 112 samples.

Results

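Primary cultures of rat cortical neurons were exposed to 10 uM nicotine for 18 h, the nicotine was washed off, and the cells were harvested 24 h later. On Affymetrix arrays, 5 samples of such cells (nicotine replicates 1 to 5) were set against 5 control samples (control replicates 1 to 5). These 10 arrays were chosen by the sample labels, as the control and nicotine arrays of the first hybridization of an experiment on neuroprotection, out of 112 arrays in the series. The control labels give a time of 0 h and no treatment, and do not say whether control cells went through the changes of medium. The labels give no strain or age and no separate origin for the replicates, so the p-values measure the spread between these samples, which may be technical in part.

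The same run held 5 arrays of cultures given a 30 min pulse of 1 mM NMDA and 5 of cultures given nicotine and the NMDA pulse, all washed and harvested after the same 24 h. All 20 samples were hybridized a second time in a repeat run. The labels tie the repeat to an oven failure, and do not say which run it affected. A separate experiment with 3 control and 3 nicotine arrays used the same 10 uM for 18 h with harvest at once, and is called unwashed here.

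Nicotine opens nicotinic acetylcholine receptors, ion channels built of several subunits. In the cortex the common neuronal forms are assembled from the products of Chrna4 with Chrnb2 or from Chrna7 alone, and they let in sodium and calcium. Lasting exposure desensitizes many of these receptors and is known to raise the number of receptor proteins at the membrane, largely without more subunit mRNA. Nicotine given before glutamate is known to protect cultured neurons, and the experiment's label names neuroprotection as its subject. With the drug washed off a day earlier, the comparison asks which transcripts still differed once the agonist was gone.

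Each array carried 1322 probe sets, of which 59 controls were left out. The deposited intensities had nearly the same trimmed mean on every array of the run, between 2510 and 2512. Differences are given as log2, nicotine minus control, on log2(signal + 57.2), where the offset of 57.2 is the 10th percentile of the run's positive values and makes folds of dim probe sets smaller. The 884 probe sets left after a filter on dim signal were tested with limma over the 20 arrays of the run, with Benjamini-Hochberg adjustment over all 884. Nicotine was compared with control in the first run and in the repeat run on the deposited values and again after quantile normalization. This normalization gives all arrays of a run the same distribution of values. The other gene comparisons are given after normalization unless deposited values are named.

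Before any gene, the control and nicotine arrays differed as arrays. The median deposited signal was 519, 475, 547, 443 and 470 on control replicates 1 to 5, and 601, 583, 607, 618 and 567 on nicotine replicates 1 to 5. The groups did not overlap, and the means were 491 ± 41.5 and 595 ± 20.02 (SD, n = 5; exact permutation test, two-sided, p = 0.00794, adjusted over 9 array measures 0.0238), where 0.00794 is the smallest p that 5 against 5 allows. Probe sets with a signal below 100 made up 18.9% to 20.9% of control arrays and 13.4% to 16.6% of nicotine arrays, without overlap (n = 5 each; exact permutation p = 0.00794). The interquartile range of log2 signal was 3.37 ± 0.108 in controls and 3.11 ± 0.108 with nicotine (SD, n = 5; exact p = 0.0159). The arrays of NMDA, and of nicotine with NMDA, had medians of 557 to 641, like those of nicotine alone, so by the median the controls were the group set apart. Their share of probe sets below 100, at 15.3% to 17.4%, also lay below that of every control array. Their interquartile ranges, at 3.21 to 3.37, overlapped those of both control and nicotine arrays.

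**Figure D1:**
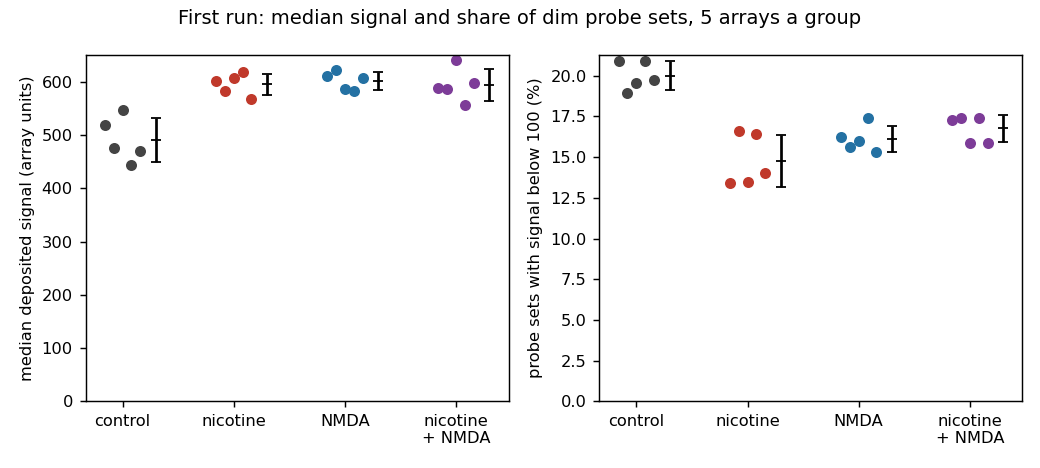
Median deposited signal (left, array units) and percent of probe sets with a signal below 100 (right) on each of the 20 arrays of the first run. Points are arrays and bars show mean ± SD of 5. The 5 control arrays lie at medians of 443 to 547, below the 15 arrays of the other groups at 557 to 641.

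RNA integrity was read from the signal of the 3' over the 5' probe set of Gapdh, beta-actin and hexokinase. For Gapdh this ratio was 1.56 ± 0.160 in controls and 1.37 ± 0.0996 with nicotine (SD, n = 5; exact permutation p = 0.0635, adjusted over 9 array measures 0.114). For beta-actin it was 0.882 ± 0.0634 and 0.821 ± 0.0777 (exact permutation p = 0.206). For hexokinase it was 2.64 ± 0.656 and 2.44 ± 0.937 (exact permutation p = 0.698). By rank correlation with the rest of the run, control replicate 5 (0.927) and nicotine replicate 5 (0.914) stood apart from the others, as did 1 array of nicotine with NMDA. Neuronal transcripts were strong in both groups. The growth cone gene Gap43 had a signal of 46133 ± 3747 in controls and 40118 ± 3838 with nicotine, and the synaptic vesicle gene Syp had 11641 ± 861 and 11199 ± 949 (SD, n = 5). The summed signal of 13 neuron markers was 130864 to 149429 in controls and 125005 to 137609 with nicotine, that of 6 astrocyte markers 31217 to 40772 and 26635 to 36029, and none of these genes passed the test on either scale. No endothelial or meningeal marker was on the array under its symbol. The only microglial marker, Itgam, was dim at 172 ± 64.1 and 228 ± 108 (SD, n = 5) and was not tested.

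On the deposited values 3 genes were higher after nicotine, and no gene was lower past the threshold. They were Nxph4, which encodes a neurexophilin, a secreted ligand of neurexins, Chrm4, the M4 muscarinic acetylcholine receptor, and Ndst1, an enzyme that sulfates heparan sulfate chains. These 3 make up 0.339% of the probe sets tested, and 154 of 884 had an unadjusted p under 0.05, 130 of them higher with nicotine and 24 lower.

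The signal of Nxph4 (AF042714_at) was 487, 580, 558, 696 and 540 on control replicates 1 to 5, and 969, 806, 1047, 1341 and 1597 on nicotine replicates 1 to 5. All nicotine arrays lay above all control arrays, with means of 572 ± 77.1 and 1152 ± 315 (SD, n = 5). The difference was 0.91 (SE 0.16; limma adjusted p = 0.0118). The NMDA arrays lay at 725 to 1015 and those of nicotine with NMDA at 774 to 970, above every control array too.

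Chrm4 (Z49748exon_at), whose product couples to inhibitory G proteins, read 714, 563, 542, 603 and 702 on the controls and 956, 760, 1080, 1031 and 1134 with nicotine. The groups did not overlap, nicotine replicate 2 being the closest to the controls. Their means were 625 ± 79.1 and 992 ± 146 (SD, n = 5), and the difference was 0.62 (SE 0.13; limma adjusted p = 0.0481). The annotation gives Chrm4 a second probe set, which was too dim to be tested.

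Ndst1 (M92042_at) read 835, 406, 997, 618 and 829 on the controls and 1563, 1351, 1387, 1974 and 904 with nicotine. Nicotine replicate 5 fell within the control range, and the other 4 lay above it. The means were 737 ± 229 and 1436 ± 387 (SD, n = 5), with a difference of 0.92 (SE 0.20; limma adjusted p = 0.0481). On NMDA arrays it read 1328 to 1667 and with nicotine and NMDA 1140 to 1458, again above all controls.

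These calls rested on few arrays and on the scale. With each of the 10 arrays left out in turn, Nxph4 passed in 9 fits, Ndst1 in 5 and Chrm4 in 3. Without nicotine replicate 4 no probe set passed, and Nxph4 was at 0.85 (limma adjusted p = 0.0611). Without control replicate 5, nicotine replicate 5 and the third array that stood apart only Ndst1 passed, at 1.13 (limma adjusted p = 0.0332). Fitted on the 10 arrays alone, without the NMDA groups, 0 passed, with 130 at an unadjusted p under 0.05.

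Beyond the 3 calls, the differences across the array varied with brightness. The median difference of the 884 probe sets was 0.11 and 62.4% were above 0. Ordered by mean signal into 3 bands of near equal size, the dimmest, with signals of 228 to 631, had a median of 0.27 with 79.3% higher with nicotine. In the middle band, with signals of 635 to 2449, it was 0.13 and 70.1%, and in the brightest it was -0.05 and 38.0%. All 3 genes called lay in the middle band. Groups did not overlap at 27 probe sets with nicotine higher (3.05% of those tested) and at 5 with nicotine lower (0.566%). The part of this pattern in the 3 calls was not tested, and their values with the distributions made equal follow.

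**Figure D2:**
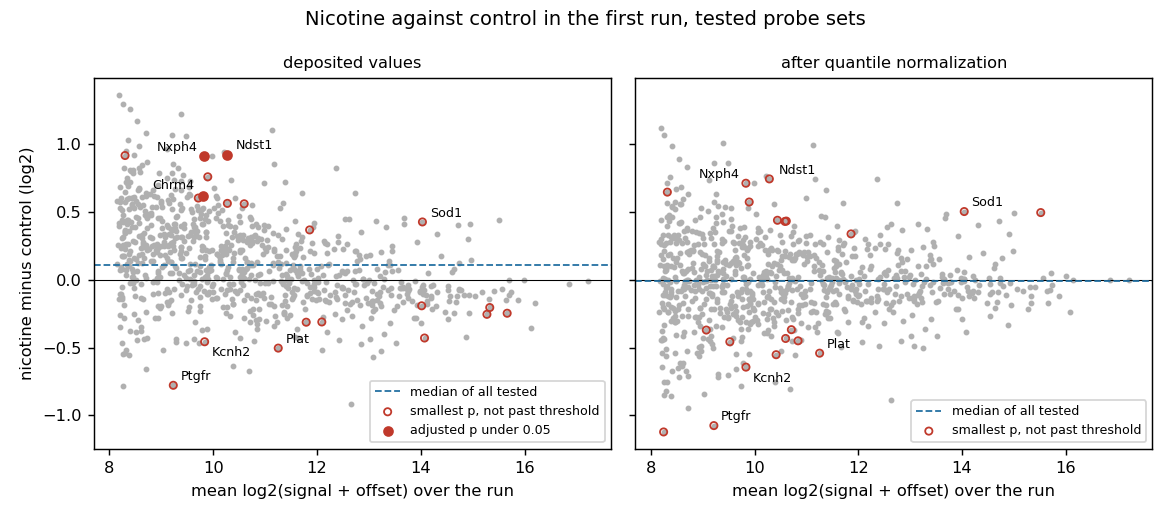
Difference between nicotine and control (log2) against mean log2 signal of the run for 884 probe sets, on deposited values (left) and after quantile normalization (right). Filled red points pass an adjusted p of 0.05 and open red points have the smallest p without passing. On the left the median of all, the dashed line, lies at 0.11, and dim probe sets lie mostly above 0. On the right it lies at -0.01 and no point is filled.

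After quantile normalization no gene passed. The median difference was -0.01, 47.5% of probe sets were higher with nicotine, and the medians of the 3 bands were 0.01, -0.01 and -0.02. Limma called 0 of 884 (0% of those tested), with 87 at an unadjusted p under 0.05, 43 higher and 44 lower. Nxph4 was at 0.71 (SE 0.16; adjusted p = 0.0792), Ndst1 at 0.75 (SE 0.20; adjusted p = 0.196) and Chrm4 at 0.39 (SE 0.14; adjusted p = 0.385). Groups did not overlap at 5 probe sets with nicotine higher (0.566%) and 6 with nicotine lower (0.679%). The 95% interval of a gene reached 0.44 to either side at the median, a fold of 1.36.

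The smallest p after normalization was that of Sod1, the cytosolic superoxide dismutase that clears superoxide. At Y00404_s_at its deposited signal was 16573, 13818, 11853, 13213 and 13638 on the controls and 20090, 17012, 17734, 19681 and 18149 with nicotine. The groups did not overlap on either scale. The difference was 0.50 after normalization (SE 0.10; limma adjusted p = 0.0626) and 0.43 on deposited values (SE 0.10; adjusted p = 0.0617). Another probe set of the gene was at 0.45 (SE 0.23) and one more, M21060_s_at, at -0.01 (SE 0.09), so the probe sets of Sod1 disagreed. Without control replicate 1 the first of these passed, at 0.57 (limma adjusted p = 0.0164).

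Ptgfr, the receptor of prostaglandin F, had the smallest p after normalization among the genes lower with nicotine. Its deposited signal was 419, 877, 441, 381 and 441 on the controls and 333, 166, 187, 486 and 224 with nicotine. Control replicate 2 stood high and nicotine replicate 4 lay among the controls on this scale, while after normalization the groups did not overlap. The difference was -1.08 (SE 0.23; limma adjusted p = 0.0792) after normalization and -0.78 (SE 0.24; adjusted p = 0.134) before it. Without nicotine replicate 4 it passed, at -1.27 (limma adjusted p = 0.0138). NMDA arrays were at 781 to 1005, above every control but replicate 2.

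Kcnh2 encodes the channel of the rapid delayed rectifier potassium current. At Z96106_at it read 983, 880, 925, 1132 and 1158 on the controls and 770, 760, 637, 734 and 707 with nicotine, with no overlap on either scale. The difference was -0.64 (SE 0.14; limma adjusted p = 0.0792) after normalization and -0.46 (SE 0.13; adjusted p = 0.101) before it. A second probe set of the gene, U75210_s_at, was at 0.16 (SE 0.12) and 0.31 (SE 0.13), so here too the probe sets disagreed.

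Plat encodes tissue plasminogen activator, a protease that neurons release. It read 2713, 2991, 2425, 2371 and 2705 on the controls and 1622, 2413, 1641, 1594 and 2049 with nicotine. Of the nicotine arrays only replicate 2 reached the control range. The difference was -0.54 (SE 0.14; limma adjusted p = 0.196) after normalization and -0.50 (SE 0.13; adjusted p = 0.0779) before it.

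**Figure D3:**
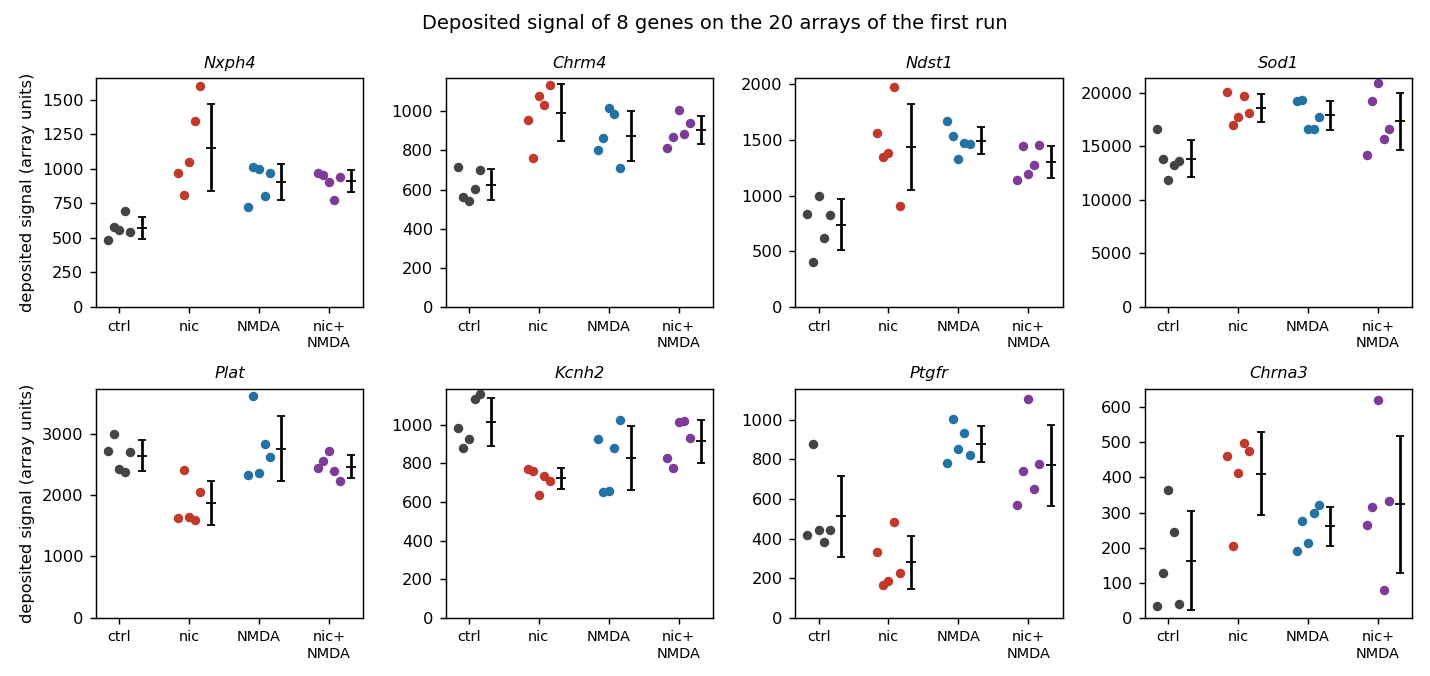
Deposited signal (array units, linear axes from 0) of 8 genes on the 20 arrays of the first run, by group. Points are arrays and bars show mean ± SD of 5. Nxph4, Chrm4, Kcnh2 and Sod1 show no overlap between control and nicotine arrays, while Chrna3, Ptgfr, Plat and Ndst1 do.

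The other genes with small p-values did not pass on either scale. Higher with nicotine were Mag, a myelin glycoprotein gene, at 0.43 after normalization (SE 0.12), Bdkrb1, a bradykinin receptor gene, at 0.57 (SE 0.18), and Drd3, a dopamine receptor gene, at 0.34 (SE 0.09). Both tested probe sets of Mag lay above 0, at 0.43 and 0.22. Mag marks oligodendrocytes, and the oligodendrocyte markers on the array summed to signals of 4357 to 8308 in controls and 5223 to 11342 with nicotine, with a median difference of 0.05 over 5 tested genes after normalization. Drd3 read 2551 to 3006 on the controls and 3400 to 4096 with nicotine, and Bdkrb1 511 to 832 and 1060 to 1536, each without overlap. Gabra2, a subunit of the GABA-A receptor, was at 0.44 (SE 0.15), also without overlap, at 859 to 1053 on controls and 1249 to 1653 with nicotine. The transcriptional repressor gene Hes3 was at 0.38 (SE 0.14), the interleukin gene Il10 at 0.65 (SE 0.22) and the protein kinase A subunit gene Prkar2a at 0.43 (SE 0.15). A probe set annotated to Eef2, rc_AA963674_at, was at 0.50 (SE 0.17), and its gene is unsure, since a probe set from the same sequence is annotated to another gene. Adjusted p-values of these 8 after normalization were 0.235 for Drd3, 0.251 for Mag and 0.385 for the others.

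Lower with nicotine after normalization were Gipc1, an adaptor gene, at -0.43 (SE 0.12; limma adjusted p = 0.251), the kinase gene Gsk3b at -0.45 (SE 0.14), and Stx4, a syntaxin gene of membrane fusion, at -0.55 (SE 0.18). Gipc1 read 1538 to 1925 on the controls and 1044 to 1502 with nicotine, with no overlap on either scale. Both probe sets of Gsk3b lay below 0, at -0.45 and -0.42. The transcription factor gene Nfkb1 was at -0.37 (SE 0.12), the interleukin receptor gene Il6r at -0.37 (SE 0.13), the nociceptin receptor gene Oprl1 at -0.46 (SE 0.16) and the potassium channel gene Kcnd3 at -1.12 (SE 0.37). Each of these and of Gsk3b and Stx4 had an adjusted p of 0.385. Without nicotine replicate 4 Kcnd3 passed at -1.51 (limma adjusted p = 0.0443), and its other tested probe sets were at -0.07 (U92897_s_at) and -0.70 (rc_AI230211_s_at).

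On the deposited values some further genes had the smallest p-values among those lower with nicotine. The ribosomal protein gene Rpsa was at -0.25 (SE 0.08), the G protein genes Gnb2 at -0.25 (SE 0.09) and Gnas at -0.20 (SE 0.08), and the sodium pump gene Atp1b1 at -0.19 (SE 0.08). Clns1a, a chloride channel regulator gene, was at -0.31 (SE 0.11), Tubg1, a gamma tubulin gene, at -0.31 (SE 0.12) and Stat3 at -0.43 (SE 0.17). Further probe sets of Clns1a and Gnas lay on the other side of 0, D13985_g_at at 0.07 (SE 0.12) and L10326_at at 0.05 (SE 0.18). The probe sets of both genes thus differed in sign, and the gap between them was not tested. Their limma adjusted p-values ran from 0.134 for Rpsa to 0.211 for Atp1b1 and Gnas. After normalization Rpsa was at -0.17, Gnas at -0.12 and Atp1b1 at -0.13. When arrays were instead centred on their medians, 41 probe sets passed, 2 higher and 39 lower, and the median of all moved to -0.15. The direction of calls thus depended on the scaling.

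The nicotinic receptor subunits, the targets of nicotine, did not pass on either scale. Of 16 subunit genes listed 15 were on the array and 11 bright enough to be tested. Their median difference was 0.25 on deposited values, beside 0.11 for all probe sets, and 0.02 after normalization, beside -0.01. The range after normalization was -0.72 for Chrnb2 to 1.07 for Chrna3, and 2 of 11 had an unadjusted p under 0.05.

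Chrna3, a subunit typical of ganglia, read 33.3, 128, 364, 246 and 40.6 on the controls and 463, 206, 413, 497 and 476 with nicotine. Control replicates 3 and 4 lay within the nicotine range, and the others below it. The difference was 1.07 (SE 0.41; limma adjusted p = 0.420) after normalization and 1.30 (SE 0.42; adjusted p = 0.138) before it. Without the arrays that stood apart it was 0.76 after normalization (adjusted p = 0.536).

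The subunits of the main cortical receptors showed wide spread. Chrna7 read 583, 66.2, 611, 112 and 269 on the controls and 411, 777, 678, 823 and 142 with nicotine, so the groups overlapped, at 0.55 after normalization (SE 0.44; limma adjusted p = 0.713). Its other probe sets were too dim to be tested. Chrna4 had a signal of 369 ± 184 in controls and 539 ± 208 with nicotine (SD, n = 5), at 0.28 (limma adjusted p = 0.881). Chrnb2 had 353 ± 229 and 221 ± 115 (SD, n = 5), at -0.72 (limma adjusted p = 0.501). Among the others Chrna2 was at 0.21, Chrnb4 at -0.02 and 0.12 with its 2 tested probe sets, and the muscle subunits Chrna1, Chrnb1, Chrnd, Chrne and Chrng at -0.18, 0.02, -0.13, -0.03 and 0.18. Chrna1, Chrnb4 (U42976_at), Chrnd and Chrne lay above 0 on deposited values, at 0.09, 0.22, 0.16 and 0.18, so their direction turned with the scaling. Chrna5, Chrna6, Chrna9 and Chrnb3 were too dim to be tested, with group means of 83.6 to 203.

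The other genes of acetylcholine signalling included 1 call, Chrm4 on the deposited values. Over 6 tested genes, the muscarinic receptors Chrm1 to Chrm5 and Slc18a3, the transporter that loads acetylcholine into vesicles, the median was 0.37 on deposited values and 0.18 after normalization. Slc18a3 read 673, 990, 1001, 1032 and 934 on the controls and 1642, 1065, 1500, 1144 and 1677 with nicotine, without overlap. Its difference was 0.56 (SE 0.14; limma adjusted p = 0.0703) before normalization and 0.37 (SE 0.14; adjusted p = 0.420) after it. A second probe set of Slc18a3 was at -0.03 and -0.23 on these scales, so its probe sets disagreed. Chrm3 was at 0.39 and 0.29, at 1363 ± 203 in controls and 1791 ± 142 with nicotine (SD, n = 5).

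Receptors, transporters and enzymes of dopamine, serotonin and noradrenaline had the highest median of the 23 gene lists with a tested member. Over 25 tested genes it was 0.56 on deposited values and 0.30 after normalization, and none of the 25 passed on either scale. Of these 20 lay above 0 before normalization and 17 after it. Most were dim: 16 lay in the dimmest band, where the median of all was 0.27 before normalization and 0.01 after it. Those 16 had medians of 0.58 and 0.32. Beside Drd3, examples after normalization were the dopamine receptor genes Drd5 at 0.48 and Drd4 at 0.51, the serotonin receptor genes Htr2c at 0.52 and Htr1a at 0.48, and the dopamine transporter gene Slc6a3 at 0.47. The adrenergic receptor genes Adra1d at -0.61 and Adra2c at -0.65 lay below 0.

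**Figure D4:**
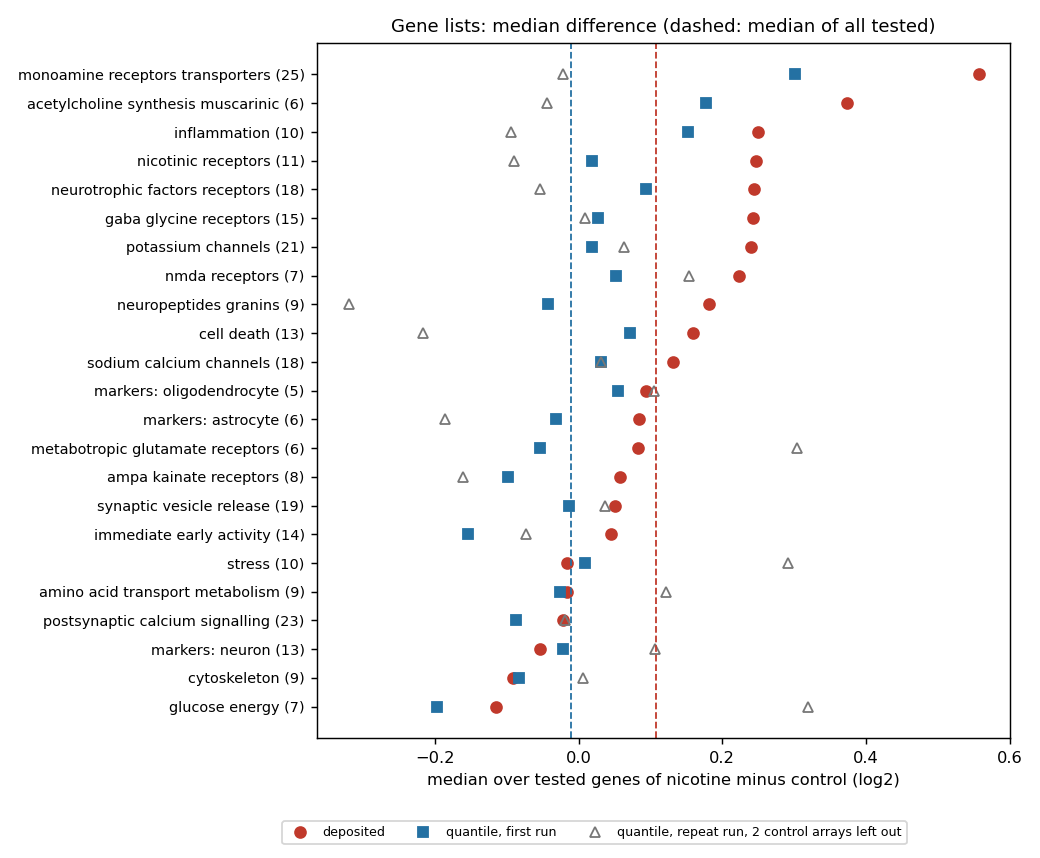
Median difference between nicotine and control (log2) over the tested genes of each of 23 lists, with the number of genes in brackets. Circles are deposited values and squares quantile-normalized values of the first run, triangles the repeat run without 2 control arrays, and dashed lines the medians of all 884 probe sets at 0.11 and -0.01. The monoamine list lies highest in the first run, at 0.56 and 0.30, and at -0.02 in the repeat run.

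Activity-regulated immediate early genes showed no call among 14 tested, and none of the 14 had an unadjusted p under 0.05. Their median was 0.04 before normalization and -0.15 after it. Fos read 5262 ± 1924 in controls and 5742 ± 1848 with nicotine (SD, n = 5), at 0.11 after normalization. Egr1 was at -0.33, Jun at -0.55 and Nr4a1 at -0.17. The brightest probe set of Bdnf, the neurotrophin gene, was at -0.17, with 828 ± 140 in controls and 889 ± 261 with nicotine (SD, n = 5).

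NMDA receptor subunits had no call among 7 tested, with a median of 0.22 before normalization and 0.05 after it, and lay between -0.25 for Grin2c and 0.35 for Grin1. Of 13 cell death genes none passed. Their median was 0.16 before normalization and 0.07 after it, where 1 of 13 had an unadjusted limma p under 0.05. After normalization the survival genes Bcl2 and Bcl2l2 were at 0.14 and 0.36. The pro-apoptotic gene Bax was at -0.21 and -0.45 with its 2 tested probe sets, and Bad at -0.05. By their brightest probe sets Bcl2l2 was the highest of the 13 and Bax the lowest, so they show the range of the list. Genes of glucose use and energy had the lowest median of the lists, -0.20 after normalization over 7 genes, with the creatine kinase gene Ckb at -0.24. In the repeat run without 2 control arrays the median of this list was 0.32, the highest of the lists there. No member of the remaining lists passed on either scale, and their medians after normalization lay between -0.10 for AMPA and kainate receptors and 0.15 for inflammation genes.

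The repeat run measured the same samples again. Control replicates 3 and 4 stood apart there, with rank correlations of 0.204 and 0.514 to the other arrays and medians of 1280 and 1376, against 507 to 627 on the nicotine arrays. With all arrays limma called 0 of 884 (0%) after normalization, with 158 at an unadjusted p under 0.05. Without these 2 arrays it called 0, with 56 at an unadjusted p under 0.05. On the deposited values of all arrays it called 0, with 178 at an unadjusted p under 0.05. Without control replicate 2 alone, with control replicates 3 and 4 kept, it called 6, 1 higher and 5 lower. Without control replicates 3 and 4 the control medians were 523 to 608, within the range of the nicotine arrays' medians.

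The leading genes had other values in the repeat run. Nxph4 read 725, 838 and 798 on control replicates 1, 2 and 5 and 711, 878, 428, 768 and 983 with nicotine, with overlap, at -0.12 after normalization (95% interval -0.60 to 0.36). Sod1 read 20226, 14652 and 11757 on those controls and 11647 to 16511 with nicotine, at -0.16 (-0.51 to 0.19). Ndst1 read 858, 638 and 557 against 603 to 1363, at 0.49 (-0.14 to 1.11). Chrm4 was at 0.28 (-0.19 to 0.75), Kcnh2 at -0.03 (-0.70 to 0.63), Ptgfr at -0.25 (-0.82 to 0.31) and Plat at 0.37 (-0.41 to 1.16).

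The mean of both runs per sample was then tested, and limma called 0 of 884 (0%), with 103 at an unadjusted p under 0.05. Without the arrays that stood apart in either run the count was 0, with 52. In that fit control replicates 3 and 4 entered by the first run alone. Control replicate 5 and nicotine replicate 5 entered by the repeat run alone. There Ndst1 was at 0.65 (95% interval 0.27 to 1.02), Chrm4 at 0.34 (0.07 to 0.61), Ptgfr at -0.45 (-0.89 to -0.01), Nxph4 at 0.26 (-0.05 to 0.58) and Sod1 at 0.19 (-0.07 to 0.45). None passed after adjustment (limma adjusted p = 0.741 to 0.822 for these 5). These 5 were chosen by the first run, whose values also enter most of the samples' means, so the intervals are no independent check of them.

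Whether the 2 hybridizations gave different nicotine effects was tested on the difference per sample. Limma called 0 of 884 (0%), with 227 at an unadjusted p under 0.05. Without the arrays that stood apart it again called 0, and 119 had an unadjusted p under 0.05. Only samples left in both runs could enter that fit, so it set nicotine replicates 1 to 4 against control replicates 1 and 2 alone. The smallest p-values with all arrays included those of Sod1 (M25157mRNA_i_at) at 1.66, Nxph4 at 1.60, Bdkrb1 at 1.45 and Drd4 at 1.76, each with an adjusted p of 0.0897. Without the arrays that stood apart these were at 1.00, 0.88, 1.43 and 1.98 (limma adjusted p = 0.0835 to 0.192). Without control replicate 2 in both runs 67 passed, 23 higher and 44 lower, and without control replicate 5 the count was 32. Both of these fits kept control replicates 3 and 4 of the repeat run, which stood apart there. On deposited values 8 passed.

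**Figure D5:**
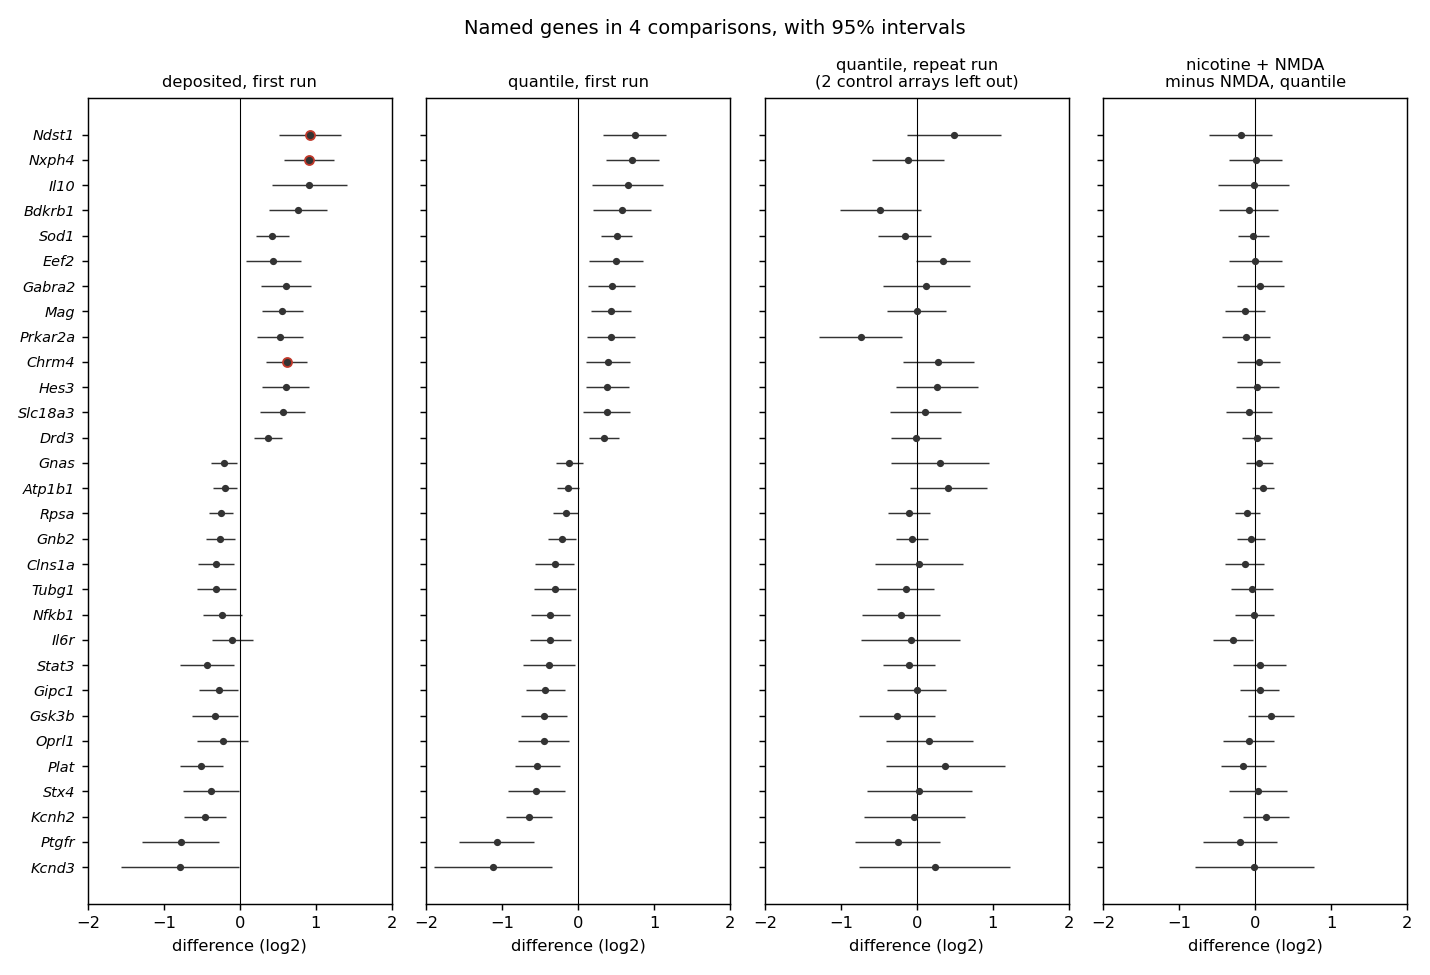
Differences (log2, with 95% intervals) of 30 genes in 4 comparisons, namely those among the 10 smallest p-values per scale and direction in the first run, from left to right nicotine against control on deposited values, after quantile normalization, in the repeat run without 2 control arrays, and nicotine with NMDA against NMDA in the first run. Red points pass the threshold, namely Nxph4, Chrm4 and Ndst1 on deposited values. The genes were chosen by the left 2 panels, and in the right panel all points lie between -0.29 and 0.20.

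In cultures that also had the NMDA pulse, nicotine was set against no nicotine on 10 other arrays of the run. The means compared share no array with those above, while the normalization, the filter and the estimate of spread came from all 20. Limma called 0 of 884 (0%) after normalization, with 16 at an unadjusted p under 0.05. Lif, a cytokine gene, had the smallest p, at -1.23 (SE 0.29; adjusted p = 0.378). Of the genes named above, Nxph4 was at 0.003 (95% interval -0.34 to 0.35), Chrm4 at 0.04 (-0.24 to 0.33), Ndst1 at -0.19 (-0.61 to 0.22) and Sod1 at -0.03 (-0.23 to 0.18). Kcnh2 was at 0.13 (-0.17 to 0.44), Ptgfr at -0.20 (-0.69 to 0.29) and Plat at -0.16 (-0.46 to 0.14). Over the 10 genes named as higher after normalization the range was -0.19 for Ndst1 to 0.06 for Gabra2, and over the 10 named as lower it was -0.29 for Il6r to 0.20 for Gsk3b. The deposited medians of these arrays, 583 to 622 with NMDA and 557 to 641 with nicotine and NMDA, overlapped.

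The difference between nicotine's effect with and without the NMDA pulse was tested as an interaction, which shares its control and nicotine arrays with the values above. Limma called 0 of 884 (0%), with 47 at an unadjusted p under 0.05. The smallest p-values belonged to genes chosen above, Kcnh2 at 0.78 (95% interval 0.35 to 1.21; adjusted p = 0.593) and Sod1 at -0.53 (-0.82 to -0.23; adjusted p = 0.593), and then to Ndst1 at -0.94, Kcne1, a potassium channel subunit gene, at -1.30 and Mag at -0.57, each with an adjusted p of 0.615.

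Nicotine for 18 h without washing, measured in another run, gave 0 calls of its own, with 46 at an unadjusted p under 0.05. There Nxph4 was at 0.03, Sod1 at 0.04, Ndst1 at 0.74, Chrm4 at -0.45, Kcnh2 at 0.26 and Ptgfr at -0.36. Control replicate 2 of that run stood apart, with a rank correlation of 0.887 and a Gapdh 3' to 5' ratio of 3.36. The other controls had ratios of 1.58 and 1.27. This array was kept in these values and in the difference that follows. The washed effect of the first run minus the unwashed effect was past the threshold at 0 of 884 probe sets (0%), with 64 at an unadjusted p under 0.05. The smallest p-values there included those of the chemokine receptor gene Cxcr4 at 0.77, Chrm4 at 0.84, Hes3 at 1.01, the calcium-regulated kinase gene Pnck at 1.99 and Kcne1 at 1.39, each with a limma adjusted p of 0.366. The 95% interval of this difference reached 0.76 to either side at the median, and harvest time, run and washing cannot be told apart in it.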

How the data were processed

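RNA from primary rat cortical neurons was measured on 112 Affymetrix arrays, of which 10 form the comparison described here, with 20 arrays in its run, 20 in the repeat run and 12 in the run of unwashed nicotine. The authors' deposited values were read as linear intensity, with means of 2510 to 2512 on the first run's arrays after trimming 2% at each end. Their program and scaling are not given in the sources used here. Of 1263 probe sets kept, the platform annotation gave 1137 to 1 gene, 8 to several and 118 to none, and genes were named only from those with 1.

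Values were turned to log2 after adding the 10th percentile of the run's positive values, quantile-normalized within the run where stated, filtered at the 30th percentile and fitted with limma 3.58.1 in R 4.3.3 (intensity trend, group means of the run), at an adjusted p of 0.05. The difference between runs was fitted without the trend. Array measures were compared by exact permutation. Arrays stood apart where their median rank correlation fell over 3 median absolute deviations below the run's median. Named are, per scale and direction, the 10 probe sets with the smallest p, the nicotinic subunits, and list members past the threshold. Most of the 10 had all 5 nicotine arrays on 1 side of the control mean. Exceptions, with 4 on 1 side and 1 on the other, were Prkar2a, Stx4 and Kcnd3 after normalization and Stat3 on deposited values. A gene stood in a list by its brightest probe set. The samples, 26 gene lists and tests were chosen with earlier results of these data known. The fit was tested on simulated data. Alternatives covered the replicate block, other scalings, offsets, filters, array weights and arrays left out. The number of arrays limits the precision.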

Additional observations from a re-analysis of the deposited data

Results flagged for a closer look

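Among 94 groups of 5 arrays checked, 10 held an array far from the other 4 by Dixon's test (gap over range above 0.71), and chance flags about 1 in 20 groups. Values are log2(signal + 57.2). On deposited values Bdkrb1 was at 10.64 on nicotine replicate 5 (the others 10.13 to 10.26) and Slc18a3 at 9.511 on control replicate 1 (9.953 to 10.09). Ptgfr was at 9.868 on control replicate 2 (8.775 to 8.96). On nicotine replicate 4 Gnb2 was at 14.74 (15.18 to 15.28) and Atp1b1 at 13.95 (13.69 to 13.75).

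After quantile normalization Bdkrb1 was at 10.63 on nicotine replicate 5 (the others 10.11 to 10.22), and the probe set annotated to Eef2 at 15.34 on the same array (15.89 to 16.06). Ptgfr was at 10.08 on control replicate 2 (9.037 to 9.168), Gipc1 at 10.04 on nicotine replicate 4 (10.47 to 10.57) and Kcnd3 at 7.359 on control replicate 5 (8.555 to 8.879).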

How the results depend on the processing

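On deposited values the 3 calls became 0 with only the 10 arrays, 0 after quantile normalization, 1 without the arrays that stood apart, 1 with the offset at the 1st percentile, 5 without the intensity trend, 10 with no filter, 11 with the filter at the median and 41 (2 higher, 39 lower) under median centring. With each array left out in turn they ran from 0 to 13. After quantile normalization the count was 1 with the filter at the median, and 0 to 2 with 1 array left out.

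The labels do not say that replicate numbers mark a shared culture. Deviations of same-numbered control and nicotine arrays correlated at 0.27, 0.073, 0.38, 0.35 and 0.64, and 3 of the 5 controls correlated best with the nicotine array of their own number. With the replicate block 13 passed on deposited values (12 higher, 1 lower) and 2 after normalization (Sod1 higher, Kcnh2 lower), while 0 passed on deposited values when the block was fitted with those arrays left out that stood apart. The block changed no other count of calls.

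Leaving out 1 sample gave 0 to 6 calls for the repeat run on deposited values, 0 to 67 for the difference between runs, where deposited values gave 8, and 0 to 1 for washed minus unwashed. It gave 0 throughout for the repeat run after normalization, the mean of runs, nicotine with NMDA against NMDA, and the interaction. The arrays that stood apart, other than a sample left out, were kept in these fits. The differences between array groups, with alternatives added after the data were seen, ran from 0.22 to 0.29 (log2 median), -5.69 to -4.88 (percent below 100), -0.30 to -0.22 (interquartile range) and -0.22 to -0.13 (Gapdh ratio). Without the arrays that stood apart the interquartile range differed by -0.25 (exact permutation p = 0.0571). The 10 higher and 10 lower genes named on each scale kept their direction under every alternative run on that scale. They were chosen by direction and small p on these same arrays, so this was largely fixed in advance. Of the 10 named as higher after normalization, 9 were tested in the repeat run without 2 control arrays, with 3 above 0 and 6 below. Of the 10 named as lower, 6 lay below 0 there and 4 above. Some nicotinic subunits changed direction, in 12 of 258 values (Chrna1, Chrnb1, Chrnb4, Chrnd, Chrne) on deposited values and 23 of 246 (Chrna4, Chrnb1, Chrnb4, Chrnd, Chrne) after normalization. What set these dependences was not tested.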
